A study of Mus musculus with 18 samples.

Results

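Prostaglandin synthesis, sensing and removal were followed through 10 genes: Ptgs1, Ptgs2, Ptges, Ptgds, Ptgis, Ptgdr, Ptger2, Ptger4, Hpgd and Slco2a1. All 10 symbols were found in the gene tables of both experiments, which held 56691 and 56893 features. The genes were chosen with their levels in the 6 groups and their changes against the matching vehicle in view. Those levels and changes are therefore given as a description, and no p-value of theirs is used as support.

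Prostaglandins are short-lived lipid signals made from arachidonic acid, which phospholipases release from membranes. The cyclooxygenases Ptgs1 and Ptgs2 turn arachidonic acid into prostaglandin H2, and terminal synthases then make the individual prostaglandins E2, D2 or I2 from it. Each prostaglandin acts on G protein-coupled receptors, and the signal ends when the transporter Slco2a1 brings it into the cell, where Hpgd oxidises it. In the mammary gland, Ptgs2 and prostaglandin E2 are known from studies of inflammation, involution and tumour growth.

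RNA was measured in organoids grown from purified mammary epithelial cells of nulliparous wild-type C57BL/6 mice, 18 libraries in 6 groups of 3. In the first experiment, organoids from mice of about 24 weeks were cultured for 12 days and received 10 nM estradiol, the ovarian estrogen, or its vehicle ethanol (1:1,000) for 11 days. In the second, organoids from mice of about 15 weeks were cultured in Matrigel for 18 days and received 100 nM Torin 1, an inhibitor of the kinase mTOR, or its vehicle DMSO (1:1,000), each in an arm named D6 and an arm named D12. The sample titles read D6 and D12 as 6 and 12 days of treatment before collection, whereas the design text of the series gives 12 days to D6 and 6 days to D12. The batch tag of the labels reads 6 days in every D6 library and 12 days in every D12 library, as the titles do. Whether it marks a batch of processing is not stated. Any batch, treatment length and start of treatment cannot be told apart between the arms. All cultures had serum in the medium only during the first day. Which mouse, culture or well each library came from is not stated, so that p-values measure only the spread between these libraries.

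The 6 libraries with ethanol or estradiol held 20637473 to 24312079 counts, and the 12 with DMSO or Torin 23239364 to 28910688. Levels are given as CPM, in which each count is divided by a library size scaled by TMM, as mean ± SD (n = 3), and differences as log2 fold changes with the standard error (SE) of an edgeR quasi-likelihood fit over all genes of that experiment. A gene was called where the Benjamini-Hochberg adjusted p over all genes tested was under 0.05, and "rose" and "fell" are used only for such genes. The third Torin library of each arm stood apart from the other libraries of its group. In Torin D6 the chi-square per degree of freedom between libraries was 108 and 132 for pairs with the third library and 14.3 for the other pair, and in Torin D12 it was 44.8 and 48.8 against 8.09. Epithelial markers (Epcam, Cdh1, Elf5 and 5 keratin genes) were all present at a mean of 1 CPM or more in every group. They summed to 11635 to 12105 CPM with ethanol and 11694 to 12274 CPM with estradiol. The sum was higher in Torin D6 (8434 to 10220 CPM) than in DMSO D6 (6525 to 7711 CPM) and lower in Torin D12 (5195 to 6597 CPM) than in DMSO D12 (8257 to 8558 CPM), with no overlap in either arm. The basal keratin Krt5 fell in both arms, 9.15-fold in D6 and 2.18-fold in D12. The basal keratin Krt14 was at −0.33 (SE 0.16), not past the threshold, in D6 and fell in D12 (−0.96, SE 0.17). The luminal keratin Krt8 rose in D6 (1.05, SE 0.21) and was at −0.48 (SE 0.21), not past the threshold, in D12. Krt18 and Krt7 rose in D6 (0.73, SE 0.095, and 0.68, SE 0.12) and fell in D12 (−0.30, SE 0.094, and −0.59, SE 0.12). The part of these shifts in the values below was not tested. Markers of mast cells, lymphocytes and adipocytes summed to under 2 CPM in every library. In these bulk libraries, fewer cells of a type and less RNA per cell cannot be told apart.

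Promoter sequences, 250 bases before to 50 bases after the annotated start, were taken from RefSeq (mouse build GRCm38.p6), which matched 9 of the 10 genes. 4 are shown because their genes carry the main patterns described here: Ptges and Ptgdr, which were lower under every treatment, Ptgs2, which was higher under estradiol and lower under Torin, and Slco2a1, whose sign under Torin differed between the arms. Ptgs1 was also lower under every treatment, and the signs of Ptgis, Ptger2 and Ptgds also differed between the Torin arms. The 4 promoters shown lie at chr1:150099781-150100080 on the + strand (Ptgs2), chr2:30903248-30903547 on the − strand (Ptges), chr14:44859326-44859625 on the − strand (Ptgdr) and chr9:103008237-103008536 on the + strand (Slco2a1). Each is written 5′ to 3′ along the gene, and capitals mark the searched words.
Ptgs2: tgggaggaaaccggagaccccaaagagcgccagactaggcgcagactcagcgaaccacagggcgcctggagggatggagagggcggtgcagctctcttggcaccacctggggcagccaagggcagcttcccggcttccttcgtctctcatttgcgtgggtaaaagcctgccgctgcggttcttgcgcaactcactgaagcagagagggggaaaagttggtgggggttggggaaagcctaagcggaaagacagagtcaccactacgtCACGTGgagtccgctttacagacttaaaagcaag
Ptges: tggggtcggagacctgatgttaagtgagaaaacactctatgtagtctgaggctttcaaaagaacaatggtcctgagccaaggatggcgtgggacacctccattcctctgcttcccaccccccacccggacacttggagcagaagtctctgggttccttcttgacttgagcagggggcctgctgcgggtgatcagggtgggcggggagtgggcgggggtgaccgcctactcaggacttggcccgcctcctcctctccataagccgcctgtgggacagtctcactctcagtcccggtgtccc
Ptgdr: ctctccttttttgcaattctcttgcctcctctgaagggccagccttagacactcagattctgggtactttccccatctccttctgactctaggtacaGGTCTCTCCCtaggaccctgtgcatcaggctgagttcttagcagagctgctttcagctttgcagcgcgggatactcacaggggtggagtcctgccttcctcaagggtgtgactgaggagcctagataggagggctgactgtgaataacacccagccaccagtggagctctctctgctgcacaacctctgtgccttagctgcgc
Slco2a1: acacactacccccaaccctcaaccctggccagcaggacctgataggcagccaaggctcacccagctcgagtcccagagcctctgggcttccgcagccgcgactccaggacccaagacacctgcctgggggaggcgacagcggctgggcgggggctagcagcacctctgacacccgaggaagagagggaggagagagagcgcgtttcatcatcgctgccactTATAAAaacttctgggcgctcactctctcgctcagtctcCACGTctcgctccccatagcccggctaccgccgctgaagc

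6 words were searched on both strands. In Ptgs2 the capitals are an E-box (CACGTG, held by 7.15% of the 32851 RefSeq promoters of this length) at bases 17 to 22 after the start; it contains the hypoxia element core ACGTG, held by 19.6%, on both strands. Slco2a1 holds ACGTG on the minus strand at bases 11 to 15 after the start and a TATA box (TATAAA, 13.6% of promoters) at −29 to −24, and Hpgd holds TATAAA at bases 5 to 10. Ptgdr holds the NF-kB word (20.7%) on the minus strand at −153 to −144. The cAMP response element TGACGTCA (1.79%) and the estrogen response element (0.07%) were in none of the 9 windows. These matches describe letters in the window and were not tied to the expression values.

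**Figure D1:**
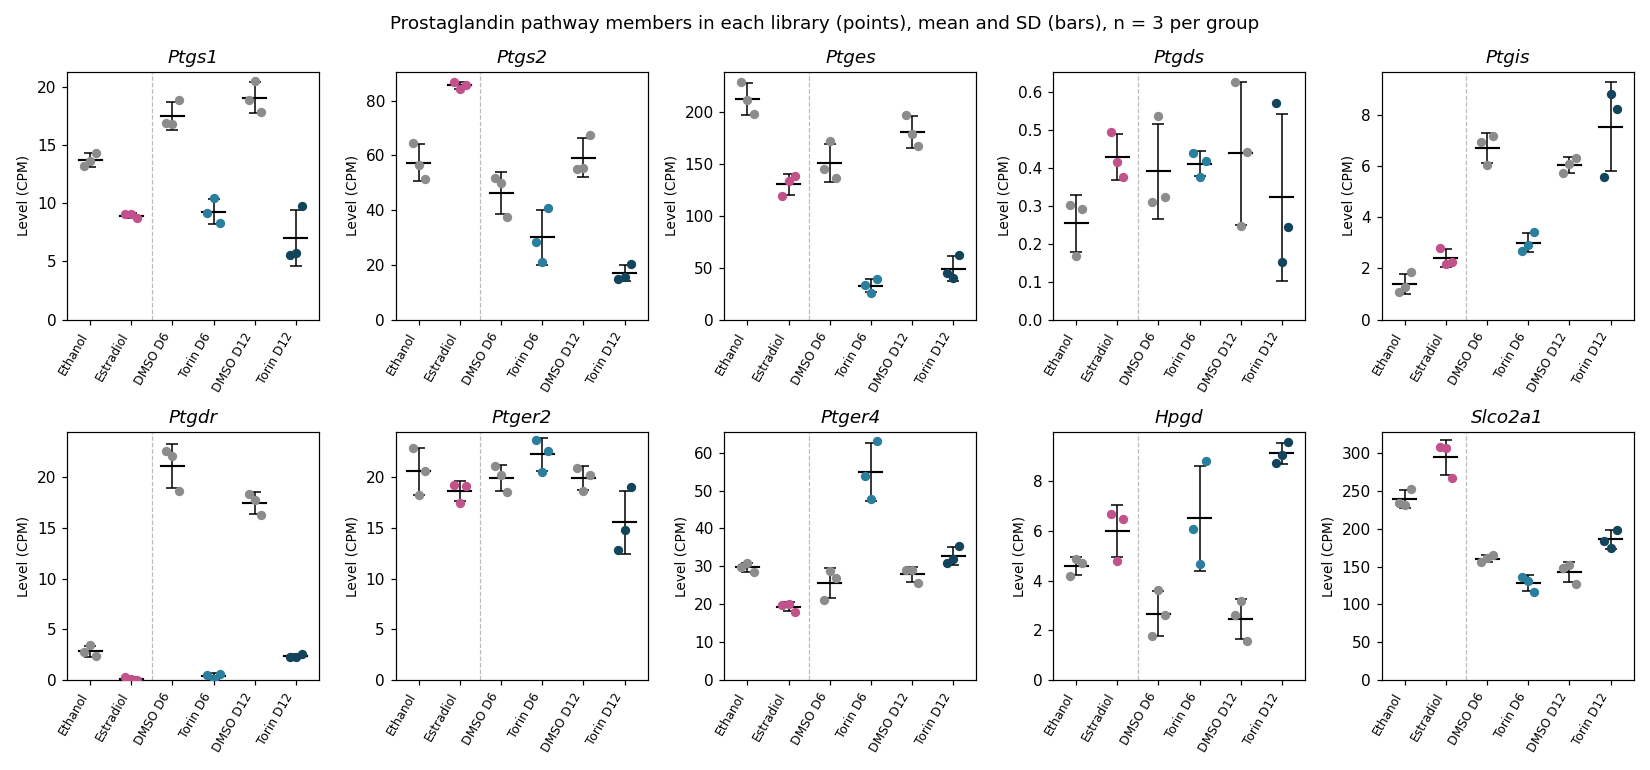
Level of each of the 10 genes (CPM, linear axes from 0) in every library; points are libraries, bars the mean and SD of 3, and the dashed line separates the 2 experiments. Ptgs1, Ptges and Ptgdr were lower in all 3 treated groups than in the matching vehicle, and Hpgd was higher under Torin in both arms.

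Both cyclooxygenases were lower under Torin, and they moved in opposite directions under estradiol. Ptgs1, the constitutive cyclooxygenase, was at 13.2, 13.6 and 14.3 CPM with ethanol and at 9.04, 9.05 and 8.70 CPM with estradiol, a log2 difference of −0.62 (SE 0.088). In the D6 arm it was at 16.9, 16.8 and 18.9 CPM with DMSO and at 9.12, 10.4 and 8.28 CPM with Torin (−0.92, SE 0.20). In the D12 arm the DMSO libraries were at 18.9, 20.5 and 17.8 CPM and the Torin libraries at 5.51, 5.76 and 9.76 CPM (−1.44, SE 0.20). The groups did not overlap in any of the 3 comparisons, and the third Torin D12 library was the highest of its group.

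Ptgs2, the inducible cyclooxygenase and the enzyme targeted by coxib drugs, was at 64.4, 56.3 and 51.3 CPM with ethanol and at 86.7, 84.2 and 85.9 CPM with estradiol, a log2 difference of 0.58 (SE 0.064). In the D6 arm it was at 51.7, 49.7 and 37.6 CPM with DMSO and at 28.3, 21.1 and 40.8 CPM with Torin (−0.62, SE 0.22). These D6 groups overlapped: the third Torin library lay above the third DMSO library. Without the third Torin libraries of both arms, an omission added after the data were seen, the D6 difference was −0.91 (SE 0.15). Without the second Torin D6 library it was −0.43 (SE 0.20). The D6 call was lost in that fit, in 4 of 6 fits that left out 1 library, and with only the groups compared (−0.64, SE 0.25). In the D12 arm it was at 54.9, 55.3 and 67.3 CPM with DMSO and at 14.8, 15.7 and 20.2 CPM with Torin (−1.81, SE 0.22), and the groups were well apart. The strand setting of the counting is not stated, so that reads of Ptgs2 and its antisense transcripts could not be separated with certainty; Ptgs2os was at 0.168 to 0.647 CPM over all libraries and Ptgs2os2 at 0.0895 to 0.476 CPM.

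Among the terminal synthases, Ptges showed the lower level under every treatment. Ptges encodes the inducible prostaglandin E synthase that is coupled to Ptgs2. It was at 228, 211 and 198 CPM with ethanol and at 119, 133 and 139 CPM with estradiol (−0.71, SE 0.061). In the D6 arm it was at 145, 172 and 136 CPM with DMSO and at 33.0, 26.1 and 38.7 CPM with Torin (−2.21, SE 0.18), which is 4.62-fold lower. In the D12 arm it was at 197, 178 and 167 CPM with DMSO and at 44.6, 40.4 and 62.6 CPM with Torin (−1.88, SE 0.18), or 3.67-fold lower. No treated library reached the level of any vehicle library of its comparison.

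Ptgis, the prostacyclin synthase known from vascular and stromal cells, behaved differently in the arms. It was at 1.08, 1.26 and 1.85 CPM with ethanol and at 2.79, 2.17 and 2.26 CPM with estradiol (0.79, SE 0.26), a difference that missed the threshold without ethanol library 1 (0.64), ethanol library 2 (0.73) or estradiol library 1 (0.67). In the D6 arm it was at 6.92, 6.04 and 7.15 CPM with DMSO and at 2.68, 2.93 and 3.42 CPM with Torin (−1.16, SE 0.19), with no overlap. In the D12 arm it was at 5.71, 6.09 and 6.29 CPM with DMSO and at 5.55, 8.79 and 8.22 CPM with Torin (0.32, SE 0.18), and the groups overlapped.

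Fibroblast markers were present in these epithelial organoids and their summed level was higher with estradiol and lower in Torin D6, as that of Ptgis was. All 8 markers (Col1a1, Col1a2, Col3a1, Pdgfra, Pdgfrb, Dcn, Lum and Fbln1) were at a mean of 1 CPM or more in every group. Their summed level was 298 to 325 CPM with ethanol and 393 to 467 CPM with estradiol. It was 894 to 1249 CPM in DMSO D6 and 284 to 317 CPM in Torin D6, whereas it was 898 to 1039 CPM in DMSO D12 and 723 to 1032 CPM in Torin D12. With estradiol the markers were not uniform: 5 of 8 rose, Fbln1 fell (−0.48, SE 0.062), and Pdgfra (−0.19, SE 0.14) and Dcn (0.015, SE 0.15) did not pass. In D6 all 8 fell, whereas in D12 Pdgfra and Fbln1 fell, Pdgfrb rose and the other 5 did not pass. The part of fibroblast RNA in the Ptgis values was not tested. Of 6 endothelial markers only 1 reached a mean of 1 CPM in any group, and their sum stayed between 4.11 and 14.2 CPM.

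**Figure D2:**
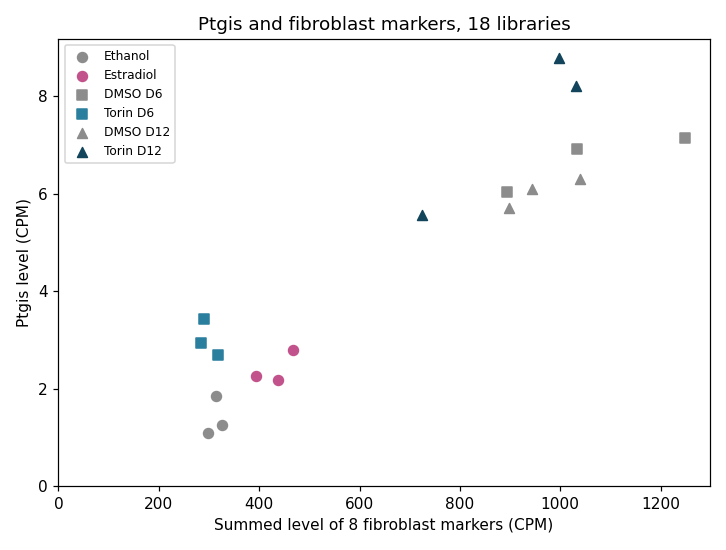
Ptgis level (CPM) against the summed level of 8 fibroblast markers (CPM) in each of the 18 libraries, coloured by group. The Torin D6 libraries lie at 284 to 317 CPM of markers and 2.68 to 3.42 CPM of Ptgis, and the DMSO libraries of both arms lie at the upper right with Torin D12.

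Ptgds, which encodes the lipocalin-type prostaglandin D synthase, was close to the limit of detection. It had 7, 4 and 6 counts with ethanol and 11, 9 and 8 with estradiol, too few to be tested there; the ratio of summed counts, scaled for depth, was 1.78 with a 95% counting interval of 0.943 to 3.47. In the Torin experiment the counts were 8, 12 and 9 in DMSO D6, 13, 10 and 11 in Torin D6, 17, 7 and 12 in DMSO D12 and 15, 4 and 7 in Torin D12. The log2 differences were 0.086 (SE 0.51) in D6 and −0.44 (SE 0.52) in D12. A difference was not detectable at this depth.

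The receptor Ptgdr had the largest difference of the 10 genes in all 3 treatment comparisons. Ptgdr encodes the Gs-coupled DP1 receptor for prostaglandin D2. Estimated counts, rounded, were 63, 82 and 49 with ethanol and 6, 1 and 0 with estradiol. They were not whole in 5 of these 6 libraries, and how reads shared between features were assigned is not stated. The ratio of summed counts was 0.0391, with a 95% interval of 0.0155 to 0.0821 that covers counting error only. In arm D6 Ptgdr was at 22.6, 22.1 and 18.7 CPM with DMSO and at 0.475, 0.0751 and 0.570 CPM with Torin, or 14, 2 and 15 counts; the ratio of summed counts was 0.0181 (0.0123 to 0.0258). In arm D12 it was at 18.4, 17.7 and 16.3 CPM with DMSO and at 2.28, 2.27 and 2.55 CPM with Torin (−2.88, SE 0.29), or 7.36-fold lower. The remaining level was thus higher in Torin D12 than in Torin D6, in every library.

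Immune cells are a known site of Ptgdr expression, and the macrophage and pan-immune markers were low. Their summed level over 6 genes was 2.48 to 3.68 CPM with ethanol and 2.07 to 3.01 CPM with estradiol. It was 6.30 to 11.4 CPM in DMSO D6, 1.73 to 2.25 CPM in Torin D6, 8.04 to 12.1 CPM in DMSO D12 and 2.08 to 2.34 CPM in Torin D12. Most of that sum was Cd68, at 7.39 ± 2.93 CPM in DMSO D6. At most 1 of the 6 markers reached a mean of 1 CPM in each group, and they were not uniform. Cd68 fell in D6 (−2.50, SE 0.29), in D12 (−2.69, SE 0.29) and with estradiol (−1.16, SE 0.30). Csf1r fell in D6 (−1.58, SE 0.49) and did not pass in D12 (−0.24, SE 0.46). Ptprc rose in D6 (1.63, SE 0.47), and Lyz2 rose with estradiol (1.74, SE 0.47). The defining leukocyte gene Ptprc was at 0.132 ± 0.014 CPM in DMSO D6 and 0.419 ± 0.185 CPM in Torin D6, Adgre1 was at 0 in all 12 libraries of the Torin experiment, and Tyrobp was at 0 in all libraries but those with estradiol. The part of immune RNA in the Ptgdr values was not tested.

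The Gs-coupled prostaglandin E2 receptors Ptger2 (EP2) and Ptger4 (EP4) differed from each other. Ptger2 was at 22.9, 18.2 and 20.6 CPM with ethanol and 19.3, 17.5 and 19.2 CPM with estradiol (−0.14, SE 0.087). It was at 21.1, 20.3 and 18.6 CPM in DMSO D6 and 23.7, 20.5 and 22.6 CPM in Torin D6 (0.16, SE 0.14). It was at 21.0, 18.7 and 20.2 CPM in DMSO D12 and 12.9, 14.8 and 19.0 CPM in Torin D12 (−0.36, SE 0.14). The groups overlapped in all 3 comparisons and none passed the threshold; without the third Torin D12 library the D12 value was −0.53 (SE 0.12) and passed it.

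Ptger4 was at 29.8, 30.9 and 28.4 CPM with ethanol and at 19.8, 20.1 and 18.1 CPM with estradiol (−0.62, SE 0.067). In arm D6 it was at 21.0, 28.7 and 26.9 CPM with DMSO and at 53.8, 47.9 and 63.2 CPM with Torin (1.11, SE 0.13), which is 2.15-fold higher. In arm D12 it was at 28.9, 29.0 and 25.6 CPM with DMSO and at 30.9, 31.8 and 35.3 CPM with Torin (0.23, SE 0.13). The D12 groups did not overlap, but the difference missed the threshold.

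Hpgd, the 15-hydroxyprostaglandin dehydrogenase that starts the breakdown of prostaglandins, was higher under Torin in both arms. It was at 4.20, 4.87 and 4.71 CPM with ethanol and 6.70, 4.80 and 6.49 CPM with estradiol (0.38, SE 0.15), with overlapping groups and no call. In arm D6 it was at 1.79, 3.62 and 2.60 CPM with DMSO and at 6.07, 4.66 and 8.81 CPM with Torin (1.29, SE 0.31). In arm D12 it was at 2.61, 3.19 and 1.58 CPM with DMSO and at 8.75, 9.06 and 9.59 CPM with Torin (1.89, SE 0.32). Every Torin library lay above every DMSO library of its arm. The estradiol value passed the threshold without the second estradiol library (0.52) and with no filter on low counts (0.41).

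Slco2a1, the prostaglandin uptake transporter, differed by at most 1.31-fold, but with opposite signs in the Torin arms. It was at 234, 231 and 253 CPM with ethanol and at 309, 307 and 267 CPM with estradiol (0.30, SE 0.056). In arm D6 it was at 155, 161 and 165 CPM with DMSO and at 137, 131 and 117 CPM with Torin (−0.32, SE 0.086). In arm D12 it was at 148, 152 and 127 CPM with DMSO and at 184, 175 and 199 CPM with Torin (0.39, SE 0.086). The groups did not overlap in any of these comparisons.

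**Figure D3:**
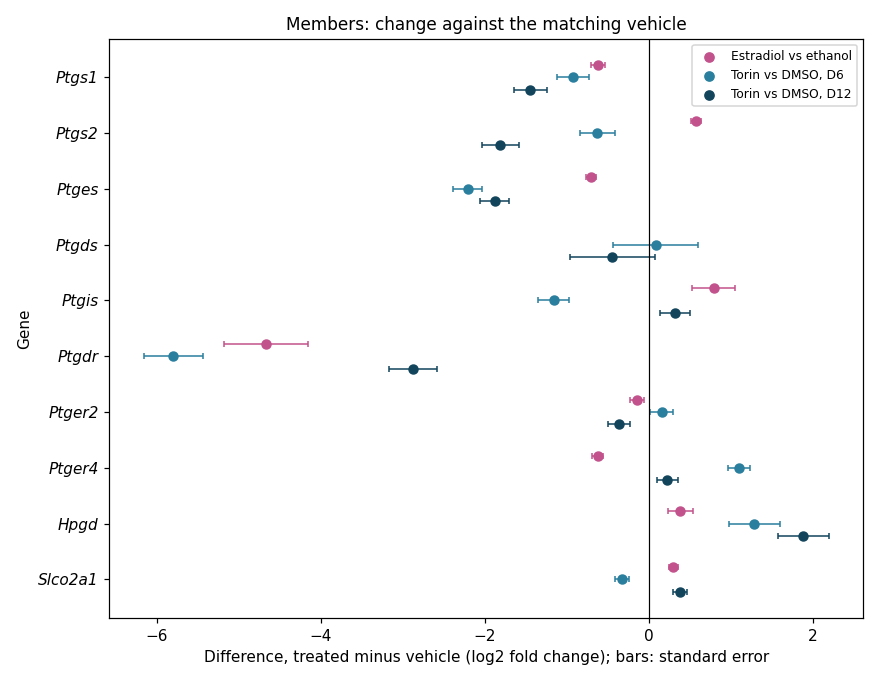
Log2 fold change of each of the 10 genes against the matching vehicle, with the standard error of the fit as bars; Ptgds was not tested with estradiol. Ptgdr lies farthest below 0 in all 3 comparisons (−4.66, −5.80 and −2.88). Slco2a1, Ptgis, Ptger2 and Ptgds lie on opposite sides of 0 in the Torin arms.

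Under estradiol, 7 of the 9 genes tested passed the threshold, 3 higher and 4 lower, where 34% of the 15358 genes tested did. In arm D6 8 of 10 passed, 2 higher and 6 lower, where 39.1% of 18112 genes did, and in the D12 arm 6 of 10 passed, 2 higher and 4 lower, where 25.4% did. The groups did not overlap for 7 genes in each comparison, against 46.4%, 48.5% and 43.7% of all genes tested. Nothing is read from these shares, since the genes were chosen on these contrasts. The median log2 difference of the tested members was −0.14 under estradiol, −0.47 in D6 and −0.40 in D12, beside −0.0060, 0.048 and 0.012 over all genes.

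The difference between the Torin effects of the arms, D12 minus D6, is built from the contrasts on which the genes were chosen, and is given as a description. It was 2.92 (SE 0.45) for Ptgdr, 1.48 (SE 0.26) for Ptgis and 0.71 (SE 0.12) for Slco2a1. It was −0.88 (SE 0.19) for Ptger4 and −1.18 (SE 0.31) for Ptgs2. These 5 of the 10 genes were past the threshold of the edgeR fit, where 10.6% of all genes tested were, and nothing is read from that share. The Ptgs2 value ranged from −1.38 to −0.87 when single libraries were left out and missed the threshold in 8 of 12 such fits. For Ptges the difference was 0.33 (SE 0.24), for Hpgd 0.60 (SE 0.44) and for Ptgds −0.53 (SE 0.73), none past the threshold. For Ptgs1 it was −0.52 (SE 0.28) and for Ptger2 −0.52 (SE 0.19), also not past it; without the third Torin D12 library both passed, at −0.84 and −0.69.

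The vehicle groups were compared as well. Their levels were also in view when the genes were chosen, so that this contrast is not independent of the choice. Between DMSO D12 and DMSO D6 none of the 10 genes passed edgeR's threshold, none had an unadjusted p under 0.05, and none was called by DESeq2 or limma; 0.00552% of all genes tested passed in edgeR. The log2 differences ran from −0.28 (Ptgdr, SE 0.26) to 0.35 (Ptgs2, SE 0.21). The groups did not overlap for Ptgs2, Ptgdr and Slco2a1, or 3 of 10 genes, beside 12.2% of all genes tested.

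Over the 12 libraries of the Torin experiment the members fell into patterns that can be described by the correlation of log2 CPM. These libraries share 4 groups, so that the values mainly reflect group means. Ptges and Ptgdr had a Pearson r of 0.96, Ptgs1 and Ptgs2 of 0.87 and Ptgs1 and Ptges of 0.86, while Ptgs1 and Hpgd had −0.87 and Ptgdr and Ptger4 −0.87. Genes averaging 5 CPM or more were searched for likeness. The one most like Ptges was Tpi1 (r = 0.995), followed by Gapdh (0.994), both glycolytic enzymes, and Fabp5 (0.993). Most like Ptgdr were Gpr15lg (0.991), Vim (0.988) and H2-Ab1 (0.988). Most like Ptgis were the collagens Col3a1 (0.980) and Col6a1 (0.972), and Rab3il1 (0.969).

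Most of the other members had the following nearest genes on the same measure. Ptgs2 was most like Myl12b (0.983), Bst1 (0.976) and Capg (0.974), and Ptgs1 most like Hsdl2 (0.979), Sdc2 (0.967) and Cog6 (0.966). Ptger4 was most like Pigf (0.973), Gas6 (0.970) and Ccl20 (0.967). Hpgd was most like Nfyc (0.952), Armc6 (0.950) and Ptprg (0.949), and Slco2a1 most like Sema5a (0.940), Creb1 (0.936) and Col9a1 (0.926). The likeness of Ptgds, led by Acta1 (0.775), rests on 4 to 17 counts per library.

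58 further genes were examined by role, 43 of which were tested with estradiol and 49 with Torin. They cover arachidonate release, terminal synthases, receptors, inactivation and transport, and lipoxygenase and leukotriene genes. The 58 also hold 12 cAMP response genes, which are not genes of prostaglandin metabolism, and the counts below pool all roles. In the arm difference given below, 4 of the 7 lower genes were cAMP response genes. With estradiol 9 rose and 11 fell, where 34% of all genes tested passed the threshold. With Torin 12 rose and 12 fell in D6 and 5 rose and 13 fell in D12, where 39.1% and 25.4% of all genes passed. For 9 of 49 the Torin effect differed between the arms, 2 with a higher and 7 with a lower value in D12, where 10.6% of all genes differed, and between the DMSO groups none passed the threshold in edgeR and 2 had an unadjusted p under 0.05. Their median log2 difference was 0.037 with estradiol, 0.034 in D6 and −0.21 in D12.

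**Figure D4:**
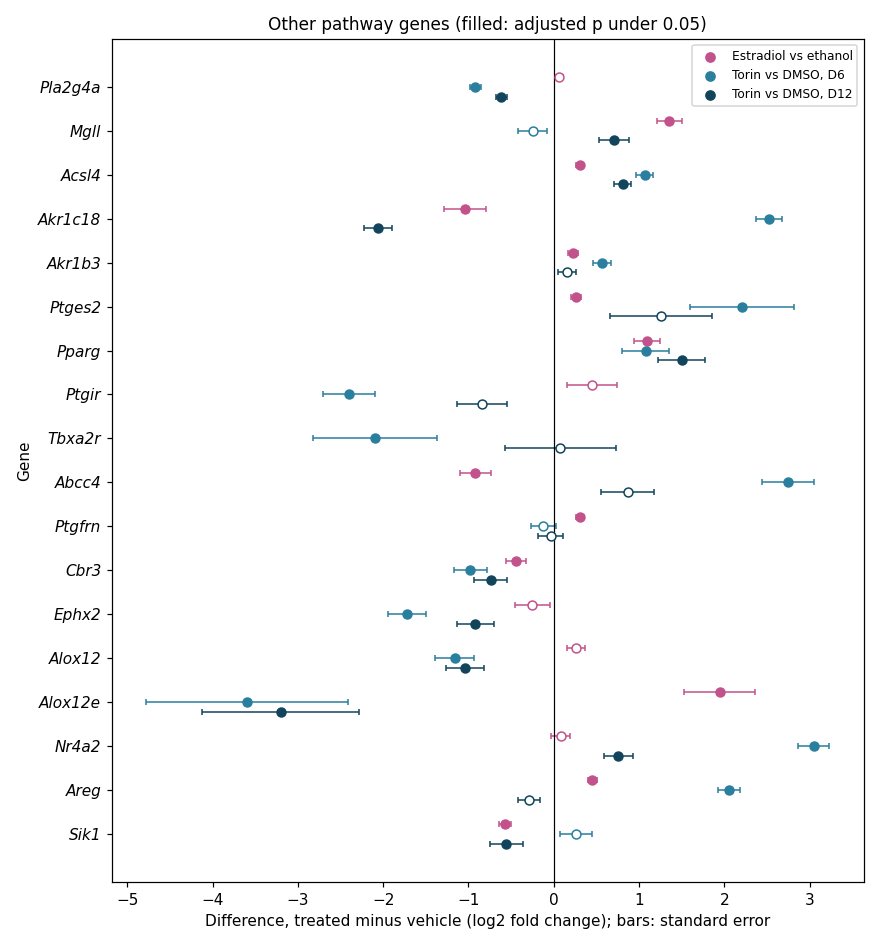
Log2 fold change against the matching vehicle, with its standard error, of 18 other pathway genes, up to 3 per role with the lowest p; filled points passed the threshold of adjusted p under 0.05. Akr1c18 lies at 2.52 in D6 and −2.06 in D12, and Pparg lies above 0 in all 3 comparisons.

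Arachidonate release was represented by 9 tested genes. With estradiol 3 rose and 1 fell, where 34% of all genes tested passed the threshold. In each Torin arm 2 rose and 1 fell, where 39.1% of all genes passed in D6 and 25.4% in D12. The gene that fell under Torin was Pla2g4a, the cytosolic phospholipase A2 that supplies the cyclooxygenases: it went from 302, 289 and 271 CPM to 147, 154 and 154 CPM in D6 (−0.92, SE 0.068) and from 312, 285 and 301 CPM to 188, 192 and 207 CPM in D12 (−0.61, SE 0.067). With estradiol its difference was 0.058 (SE 0.050). Acsl4, the ligase that activates arachidonate to its acyl-CoA, rose in all 3 comparisons, by 0.30 (SE 0.038) with estradiol, 1.07 (SE 0.100) in D6 and 0.81 (SE 0.099) in D12. Mgll, a lipase that frees arachidonate from a monoacylglycerol, rose with estradiol from 10.3 ± 2.52 to 26.3 ± 4.16 CPM (1.35, SE 0.14) and in D12 from 9.56 ± 1.51 to 15.6 ± 1.29 CPM (0.70, SE 0.17). The D12 call of Mgll was lost with limma on the deposited signal (0.42, SE 0.19).

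Of the further terminal synthases, 2 of 7 rose and 3 fell with estradiol, where 34% of all genes tested passed the threshold. In D6 3 of 8 rose and 1 fell, where 39.1% passed, and in D12 1 of 8 fell, where 25.4% did. Akr1c18, an aldo-keto reductase that inactivates progesterone and can form prostaglandin F, was at 8.05, 8.68 and 8.05 CPM in DMSO D6 and at 49.9, 53.2 and 39.2 CPM in Torin D6 (2.52, SE 0.15). In arm D12 it was at 9.80, 9.03 and 7.18 CPM with DMSO and at 2.28, 1.82 and 2.13 CPM with Torin (−2.06, SE 0.16). It therefore rose in one arm and fell in the other, an arm difference of −4.58 (SE 0.22, edgeR adjusted p = 1.47e-06). With estradiol it fell from 2.51 ± 0.372 to 1.21 ± 0.213 CPM (−1.04, SE 0.25). Akr1b3, the prostaglandin F synthase of the aldose reductase family, rose by 0.22 (SE 0.057) with estradiol and 0.57 (SE 0.11) in D6.

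Ptges2, a membrane-associated prostaglandin E synthase, rose with estradiol from 31.2 ± 1.71 to 37.4 ± 1.09 CPM (0.26, SE 0.058), a call lost with limma on the deposited signal (0.17, SE 0.084). Its D6 value of 2.21 (SE 0.60) rested on the third Torin library, with 14.9, 12.6 and 86.6 CPM in Torin D6 against 6.26, 8.05 and 10.4 CPM in DMSO D6. Without that library it was 0.72 (SE 0.21) and past the threshold, but the call was lost without the first DMSO D6 library (2.04, SE 0.72) and with only the groups compared (2.20, SE 0.77). In D12 it was 1.26 (SE 0.59) and not past it; without the third Torin libraries of both arms it was 1.14 (SE 0.20) and passed, as it did with only the groups compared (1.27, SE 0.18).

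Among the further receptors, Pparg, a nuclear receptor that binds prostaglandin J2 derivatives among other lipids, rose in all 3 comparisons. It went from 3.16 ± 0.327 to 6.74 ± 0.702 CPM with estradiol (1.09, SE 0.15), from 2.13 ± 0.129 to 4.51 ± 1.82 CPM in D6 (1.08, SE 0.28) and from 2.41 ± 0.619 to 6.84 ± 0.885 CPM in D12 (2.83-fold, SE 0.27 on the log2 scale). The D6 value was 0.68 (SE 0.23) without the third Torin library. Ptgir, the prostacyclin receptor, fell in D6 from 13.1, 16.5 and 21.8 CPM to 3.49, 4.17 and 2.05 CPM (−2.40, SE 0.31). In D12 it was at 14.7, 11.8 and 17.8 CPM with DMSO and 5.63, 9.10 and 10.0 CPM with Torin (−0.84, SE 0.29, edgeR adjusted p = 0.0508). This value passed the threshold with DESeq2 (adjusted p = 0.0163), with either other filter, with only the groups compared and without the third Torin D12 library. The part of fibroblast RNA in the Ptgir values was not tested. Tbxa2r, the thromboxane receptor, fell in D6 at under 1.1 CPM, a call lost in 5 of the 6 fits that leave out 1 library. The D2 receptor Ptgdr2 and the E2 receptor Ptger3 (EP3) were at a mean of 0.123 CPM or less in every group.

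Of 6 genes of inactivation and transport, Abcc4, an exporter of prostaglandins and cyclic nucleotides, rose in D6 from 1.83, 1.74 and 1.19 CPM to 8.99, 10.6 and 12.4 CPM (2.74, SE 0.30) and fell with estradiol from 4.18 ± 0.213 to 2.21 ± 0.332 CPM (−0.92, SE 0.18). In D12 it was at 0.971 ± 0.438 CPM with DMSO and 1.78 ± 0.403 CPM with Torin (0.87, SE 0.31, edgeR adjusted p = 0.0622). Cbr3, a carbonyl reductase, fell in all 3 comparisons, with log2 differences of −0.44 (SE 0.12) under estradiol, −0.98 (SE 0.19) in D6 and −0.74 (SE 0.19) in D12; the D12 call was lost without the second DMSO D12 library and without the first Torin D12 library. Ptgfrn, a partner of the prostaglandin F receptor, rose with estradiol by 0.31 (SE 0.043) and had differences of −0.12 (SE 0.15) and −0.035 (SE 0.15) under Torin.

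The list of lipoxygenase and leukotriene genes, which also holds receptors and the epoxide hydrolase Ephx2, had 9 members tested with Torin. In D6 4 fell and 1 rose, where 19.3% of all genes fell and 19.8% rose, and in D12 5 fell and 1 rose, where 14.6% and 10.8% did. With estradiol 1 of 6 rose and none fell, where 17.4% and 16.6% of all genes did. Ephx2, the soluble epoxide hydrolase, fell from 5.03 ± 0.884 to 1.52 ± 0.287 CPM in D6 (−1.72, SE 0.22) and from 4.72 ± 0.467 to 2.49 ± 0.504 CPM in D12 (−0.92, SE 0.22). Alox12, the platelet-type lipoxygenase, fell in both arms (−1.16, SE 0.23, and −1.04, SE 0.22). Alox12e, an epidermal lipoxygenase, rose with estradiol from 0.444 ± 0.252 to 1.73 ± 0.570 CPM (1.94, SE 0.42) and fell under Torin at under 1.2 CPM, a call lost in 3 of 6 fits that leave out 1 library in D6 and in 4 of 6 in D12.

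Genes that cyclic AMP induces downstream of Gs-coupled receptors such as Ptgdr, Ptger2 and Ptger4 did not move in 1 direction. Of 12 tested, 1 rose and 5 fell with estradiol, 4 rose and 3 fell in D6, and 1 rose and 4 fell in D12. Over all genes tested, 17.4% rose and 16.6% fell with estradiol, 19.8% and 19.3% in D6, and 10.8% and 14.6% in D12. Nr4a2, an orphan nuclear receptor, rose in D6 from 4.86, 4.56 and 5.63 CPM to 35.0, 36.8 and 52.9 CPM (3.05, SE 0.18) and in D12 from 5.27, 5.10 and 4.71 CPM to 7.26, 8.53 and 9.69 CPM (0.76, SE 0.17). Areg, the EGF receptor ligand amphiregulin, rose in D6 from 9.99, 11.2 and 9.60 CPM to 38.0, 38.8 and 51.0 CPM (2.05, SE 0.13) and with estradiol from 26.7 ± 0.837 to 36.5 ± 0.375 CPM (0.45, SE 0.055). In D12 the difference of Areg was −0.29 (SE 0.13) and not past the threshold. Sik1, a salt-inducible kinase, fell with estradiol (−0.57, SE 0.070) and in D12 (−0.56, SE 0.19), the latter with an edgeR adjusted p of 0.0496 that was lost in 5 of 6 fits that leave out 1 library.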

How the data were processed

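RNA of 18 organoid libraries was quantified by the authors in separate tables for the 2 experiments. The submitters' processing notes list kallisto, DESeq2, cutadapt, Trim Galore, MultiQC and FastQC, and the genome build GRCm39, with no roles; versions, annotation and strand setting are not given in the sources used here. The values the authors deposited for ethanol and estradiol are estimated counts, 32.2% of them fractional, and were rounded here; those for DMSO and Torin are whole-number counts by gene symbol. The normalized signal the authors deposited for both was used only in an alternative.

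Each experiment was fitted in R 4.3.3 with edgeR 4.0.16: filterByExpr, TMM scaling and the quasi-likelihood test on group means without covariates, Benjamini-Hochberg adjusted p under 0.05. All 4 Torin experiment groups shared 1 fit. CPM values of the 2 experiments come from separate tables and were not compared by a test. The script was tested on simulated data. Counting intervals (95%) cover counting error only; polymerase copies are not independent molecules. The biological coefficient of variation was 5.27% with ethanol and estradiol and 20.2% with DMSO and Torin. No 2 libraries of the same group held identical counts.

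The 10 genes, the lists of other genes and the markers were chosen with earlier results of these data known. All 10 are named, with up to 3 other genes per role of lowest p, and for each member the 3 genes of highest Pearson r over 12 libraries; those of Ptger2 are not reported here. Alternative fits used RLE size factors, DESeq2 1.42.0, no filter on low counts, a filter of 1 CPM in 3 libraries, a block for the replicate number, only the groups compared, limma 3.58.1 on the deposited signal (log2 with a pseudocount of 1, features averaging 10 or more), or 1 library fewer; omission of the third Torin library of both arms was added after the data were seen. 12 Torin experiment libraries were used; others that the design text mentions were not analysed here.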

Additional observations from a re-analysis of the deposited data

Results flagged for a closer look

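The interaction term of the edgeR fit, which compares the Torin effect between the arms, was past the threshold for 5 of the 10 prostaglandin genes and for 6 of the other pathway genes named above, where 10.6% of all genes tested were. For the 10 genes it is a description, since it is built from the contrasts on which they were chosen. The other genes were named by their lowest p in the treatment comparisons, which include those contrasts. Nothing is read from either count. Of all 49 other pathway genes tested, 2 had a higher and 7 a lower value in D12. Batch, treatment length and start of treatment cannot be told apart. The values are log2, D12 minus D6. Among the 10 genes the values were 2.92 for Ptgdr, 1.48 for Ptgis, 0.71 for Slco2a1, −0.88 for Ptger4 and −1.18 for Ptgs2. The value for Ptgdr joins 2 reductions of unequal size, that for Slco2a1 a lower level in D6 and a higher level in D12.

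Among the other genes, Akr1c18 had −4.58 (SE 0.22, edgeR adjusted p = 1.47e-06), Areg −2.34 (SE 0.18, adjusted p = 1.66e-05) and Nr4a2 −2.29 (SE 0.25, adjusted p = 0.00015). Abcc4 had −1.88 (SE 0.43, adjusted p = 0.0163 in edgeR), Ptgir 1.56 (SE 0.41, adjusted p = 0.0324) and Mgll 0.95 (SE 0.24, adjusted p = 0.0282). The calls of Ptgir and Mgll were each lost in 7 of 12 fits that left out 1 library, with values of 1.35 to 1.79 for Ptgir and 0.75 to 1.09 for Mgll. Those of Akr1c18, Areg, Nr4a2 and Abcc4 were kept in all 12.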

How the results depend on the processing

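No called value changed sign under any alternative run. Counts of all genes past the threshold moved by over 1.5 times in these cases: genes that fell with estradiol numbered 2552, and 1677 with limma on the deposited signal. Between the DMSO groups 0 rose and 1 fell, against 7 and 7 with DESeq2, 2 and 2 with no filter, and 8 and 8 with only the groups compared. With the third Torin library of both arms omitted, 3243 genes rose in D12 (1955 with them), and for the arm difference 1759 rose and 1549 fell (911 and 1006 with them). For other pathway genes called in the arm difference, 9 in number, DESeq2 gave 14 and that omission 15. The cause was not tested.

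Leaving out single libraries gave for the arm difference 596 to 1246 genes that rose (lowest without the third DMSO D6 library), 623 to 1235 that fell (lowest without the same library; 644 and 669 without the first or second Torin D12 library), and 4 to 10 other pathway genes called (4 without the third DMSO D6 or the second Torin D12 library; 5 without the third DMSO D12, the first Torin D12 or the first Torin D6 library). The members called ranged from 6 to 8 with estradiol and 7 to 8 in D6. They ranged from 6 to 7 in D12 and 4 to 7 in the arm difference. Over all genes, 2119 to 2511 rose and 2051 to 2317 fell with estradiol in such fits. In D6 2658 to 3733 rose and 2903 to 3661 fell, and in D12 1325 to 1986 rose and 1936 to 2648 fell. Nothing is read from the member counts, since the members were chosen on these contrasts.

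No pairing by replicate number was seen on 1 measure: the deviations of same-numbered libraries of a treatment and its vehicle correlated at −0.0939 to 0.047. Whether such libraries shared a mouse or culture is not stated, and this measure cannot settle it. With the replicate block, 2422 genes rose and 2334 fell with estradiol, and no member call changed; the calls of Tbxa2r in D6 (−2.09), Sik1 in D12 (−0.55) and Ptgir in the arm difference (1.497) were lost. The D6 call of Ptgs2 was lost with only the groups compared (−0.64, adjusted p = 0.0963 in edgeR) and in 4 of 6 fits that left out 1 library. Depth limits Ptgds and, in treated libraries, Ptgdr.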
